A study of Drosophila melanogaster with 12 samples.

Results

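The genes described here are 10 regulators of the step from G1 to S phase of the cell cycle, chosen by their names in the deposited count table: E2f1, E2f2, Dp, Rbf, CycD, Cdk4, CycE, Cdk2, dap and Myc. They are 10 of the 23882 features of that table, and each name matched a single row. All 10 passed the filter on low counts in every comparison. The choice by name used no measured value.

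In Drosophila, entry into S phase depends on transcription factors of the E2F family, which bind DNA as dimers with Dp. E2f1 mainly activates genes needed for DNA replication, E2f2 mainly represses genes, and Rbf, the fly homolog of the retinoblastoma protein, binds E2F dimers and holds them back. Cyclin D with its kinase Cdk4 and Cyclin E with its kinase Cdk2 phosphorylate Rbf, and Cyclin E with Cdk2 drives the start of replication. Dacapo, the product of dap, inhibits Cyclin E with Cdk2, and Myc promotes growth and the passage through G1.

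RNA of Kc cells, a line from Drosophila embryos, was sequenced in bulk after 5 days of double-stranded RNA (dsRNA), which triggers the loss of the matching mRNA. The 4 groups of 3 libraries were cells given dsRNA against dGcn5 (a histone acetyl transferase), against Elp3 (another acetyl transferase), against nej (the fly CBP) and, as the control, against the pigmentation gene yellow. All groups thus carried a dsRNA, and all came from 1 cell line. The question behind the data, as the series states it, was whether loss of dGcn5 changes genes of DNA break repair and of the cell cycle.

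The libraries held between 19102102 and 23198850 counts. Neither the labels nor the methods say that the replicates of this experiment came from separate cultures, so that p-values measure the spread between these libraries, which may be technical. In bulk RNA, fewer cells of a kind and less RNA per cell cannot be told apart. Gcn5, the target of the dGcn5 dsRNA, measured 40.1 ± 10.3 CPM (counts scaled to library size) in the dGcn5 libraries, against 138 ± 11.1 CPM in the yellow libraries (SD, n = 3 each). Elp3 measured 3235 ± 1178 CPM in the group that bears its name, against 52.5 ± 6.46 CPM in the yellow libraries, and nej measured 1417 ± 1595 CPM in its own group, against 148 ± 88.2 CPM in the yellow libraries (SD, n = 3 each). Both counts are high where a depletion would make them low, and the cause was not tested. The lowest library labelled Elp3 held 1900 CPM of Elp3, against at most 58.8 CPM in the other groups. The lowest library labelled nej held 309 CPM of nej, against at most 231 CPM in the other groups. Both groups are named only by what their labels say (labelled Elp3, labelled nej), and no direction drawn from them is that of a checked depletion. The transcript y measured 23.1 CPM on average in both the dGcn5 and the yellow libraries, and does not check the control label. Of 8 hemocyte markers, the cell type that Kc cells resemble, all 8 were detected, with a summed level of 1001 to 6012 CPM per library, whereas 3 fat body markers summed to at most 10.1 CPM, 4 neuron markers to at most 52.2, 4 muscle markers to at most 70.7 and 2 epithelium markers to at most 88.7 CPM. The 4 germ line markers summed to 184 to 301 CPM, of which aub held 154 to 234 CPM and vas at most 1.23 CPM. Within the hemocyte sum, Hml held 402 to 3825 CPM, He 13.2 to 136 CPM and NimC1 2.07 to 21.8 CPM.

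Per unit of exon length, Dp was the most abundant of the 10 transcripts and Rbf the least. In TPM (counts divided by exon length and scaled to the same total in each library) Dp averaged 129.9 ± 41.5 over the 12 libraries (SD), and Rbf averaged 7.91 ± 2.09. Dp lay at the 87.9th percentile of the 10368 features that passed the filter over all libraries, and Rbf at the 32.5th.

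Between these came E2f2 at 62.7 ± 9.55 TPM, dap at 51.2 ± 16.3 TPM, E2f1 at 50.5 ± 24.2 TPM and CycE at 37.6 ± 13.3 TPM. Cdk2 followed at 37.5 ± 9.78 TPM, then Cdk4 at 32.1 ± 5.31 TPM, CycD at 31.8 ± 9.0 TPM and Myc at 29.1 ± 16.7 TPM (SD, n = 12 for each). Only some of the neighbours in this order kept it in single libraries. Dp exceeded E2f2 and E2f1 exceeded CycE in 12 of 12 libraries, and Myc exceeded Rbf in 11 of 12. E2f2 exceeded dap, dap exceeded E2f1 and Cdk2 exceeded Cdk4 in 9 of 12 libraries each, and CycD exceeded Myc in 8. CycE exceeded Cdk2 in 6 of 12 libraries and Cdk4 exceeded CycD in 5 of 12, so that these neighbours had no fixed order.

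**Figure D1:**
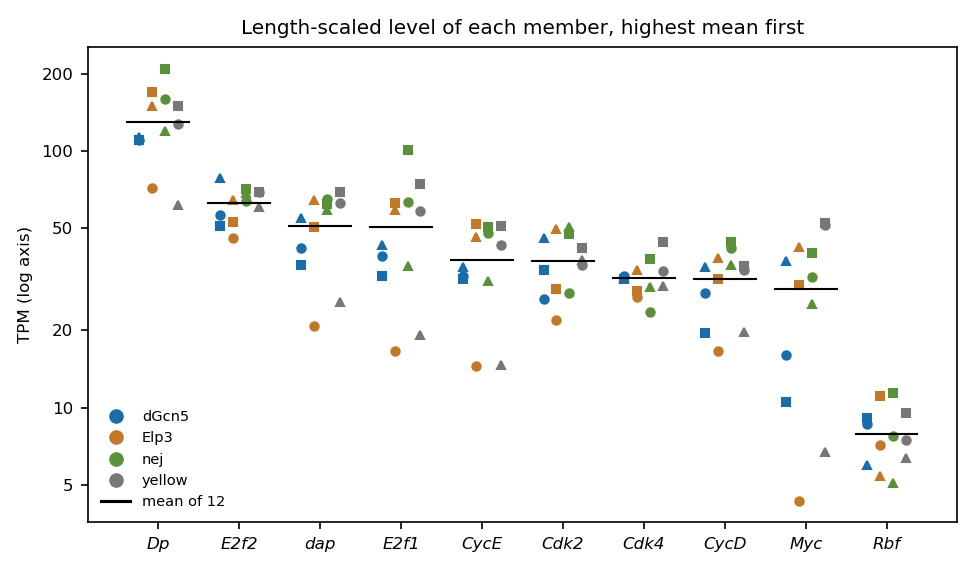
TPM of the 10 genes on a log axis, with 1 point for each of the 12 libraries, coloured by dsRNA group (circle, square and triangle for replicates 1, 2 and 3), and a line at the mean of the 12. Dp is highest at a mean of 129.9 TPM and Rbf lowest at 7.91 TPM, and the points of Myc are spread most widely, between 4.32 and 52.3 TPM.

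The dimer partner Dp (FBgn0011763) lies on chromosome 2R of the BDGP6.32 genome, from 13222433 to 13228202. It measured 207.4, 228.1 and 182.0 CPM in the dGcn5 libraries, 170.2, 277.2 and 222.5 CPM in those labelled Elp3, 258.0, 333.7 and 209.9 CPM in those labelled nej, and 200.2, 233.3 and 134.9 CPM in the yellow libraries. Its lowest value was that of yellow replicate 3 and its highest that of replicate 2 labelled nej, and the groups overlapped in every pair.

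The activator E2f1 (FBgn0011766) lies on chromosome 3R from 21620304 to 21660871. Its levels were 148.1, 135.5 and 138.5 CPM in the dGcn5 libraries, 79.1, 207.1 and 176.3 CPM in those labelled Elp3, 207.3, 323.3 and 126.4 CPM in those labelled nej, and 184.9, 232.9 and 84.0 CPM in the yellow libraries. In these CPM the 3 dGcn5 values stood close together, while each other group held both low and high libraries, and all groups overlapped. This closeness did not hold with the trend of level on exon length removed from each library, as described below. The dGcn5 values were then 170.7, 171.3 and 131.3 CPM. Those labelled Elp3 held 115.7, 175.1 and 150.5 CPM, those labelled nej 168.7, 250.4 and 129.6 CPM, and the yellow libraries 160.5, 198.1 and 121.5 CPM.

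The repressor E2f2 (FBgn0024371) lies on chromosome 2L from 21154293 to 21156749. It was the steadiest member, with 66.2, 66.3 and 78.4 CPM in the dGcn5 libraries, 67.8, 53.9 and 59.9 CPM in those labelled Elp3, 64.5, 70.8 and 75.4 CPM in those labelled nej, and 67.8, 67.1 and 82.9 CPM in the yellow libraries. Its highest library stood 1.54-fold above its lowest, and again the groups overlapped. Of its exon bases, 19.9% are shared with Mpp6 on the other strand, a gene at 7.08 to 22.3 CPM in these libraries.

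Rbf (FBgn0015799), the brake on E2F, lies on chromosome X from 797090 to 801479. It held 18.2, 21.2 and 10.8 CPM in the dGcn5 libraries, 19.1, 20.5 and 9.04 CPM in those labelled Elp3, 14.2, 20.4 and 10.1 CPM in those labelled nej, and 13.3, 16.7 and 15.6 CPM in the yellow libraries. Replicate 3 was the lowest library in each group but yellow, and no pair of groups separated.

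Among the regulators acting on Rbf, CycD (FBgn0010315, chromosome X from 15906822 to 15909676), which encodes the regulatory partner of Cdk4, was the member whose groups differed most clearly. It measured 51.8, 53.9 and 48.3 CPM in the libraries labelled nej, against 40.1, 30.9 and 43.5 CPM in the dGcn5 libraries, 30.3, 39.8 and 43.6 CPM in those labelled Elp3 and 41.3, 42.2 and 33.1 CPM in the yellow libraries. All 3 libraries labelled nej lay above the 9 other libraries, and CycD was the 1 member of which any group stood apart from all others in this way. This comparison with the rest was chosen after the values were seen. Of the 10368 features, 0.801% had the libraries labelled nej above all others, and 3.51% had some group above or below all others.

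Cdk4 (FBgn0016131), the kinase of Cyclin D, lies on chromosome 2R from 16579470 to 16585448. Its values were 47.2, 50.6 and 39.5 CPM in the dGcn5 libraries, 49.3, 35.8 and 39.0 CPM in those labelled Elp3, 29.5, 46.4 and 39.7 CPM in those labelled nej, and 41.2, 52.5 and 49.9 CPM in the yellow libraries. They overlapped between all groups, the lowest library being replicate 1 labelled nej.

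CycE (FBgn0010382, chromosome 2L from 15727581 to 15748150) encodes the cyclin that activates Cdk2 at the G1 to S step. It measured 96.8, 103.5 and 88.8 CPM in the dGcn5 libraries, 54.1, 134.3 and 108.1 CPM in those labelled Elp3, 122.4, 126.3 and 86.2 CPM in those labelled nej, and 106.8, 124.6 and 50.5 CPM in the yellow libraries. Replicate 1 labelled Elp3 and yellow replicate 3 held the lowest values, as they did for E2f1 and Myc.

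Cdk2 (FBgn0004107), the kinase bound by Cyclin E, lies on chromosome 3R from 20735623 to 20738414. The dGcn5 libraries held 35.8, 50.9 and 52.8 CPM, those labelled Elp3 37.2, 34.1 and 53.0 CPM, those labelled nej 32.6, 54.3 and 63.7 CPM and the yellow libraries 40.5, 46.5 and 59.2 CPM. In every group its highest library was replicate 3. Of its exon bases, 43.9% are shared with CG17267 on the other strand, which held at most 0.346 CPM.

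The inhibitor dap (FBgn0010316) lies on chromosome 2R from 9712321 to 9716256. It measured 83.0, 78.0 and 82.1 CPM in the libraries labelled nej, against 62.3, 58.9 and 69.5 CPM in the dGcn5 libraries, 39.0, 65.4 and 75.8 CPM in those labelled Elp3 and 78.1, 85.2 and 44.6 CPM in the yellow libraries. The libraries labelled nej all lay above those of the dGcn5 group and those labelled Elp3, but within the range of the yellow libraries.

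Myc (FBgn0262656, chromosome X from 3373159 to 3391697) varied more than any other member. It had 86.1, 62.1 and 171.4 CPM in the dGcn5 libraries, 29.4, 140.6 and 179.9 CPM in those labelled Elp3, 149.5, 182.1 and 127.4 CPM in those labelled nej, and 232.2, 232.1 and 41.7 CPM in the yellow libraries. Yellow replicates 1 and 2 were the highest of all 12 libraries and yellow replicate 3 was the second lowest. The exons of Myc share 40.9% of their bases with CG12535 on the other strand, which held 1.93 to 21.8 CPM, and 20.3% with lncRNA:CR44999 on the same strand, which held at most 0.597 CPM. Whether the counting used the strand is not given in the sources used here. The values of Myc, Cdk2 and E2f2 are thus uncertain to the extent of their overlaps on the other strand. The overlap of Myc with lncRNA:CR44999 lies on the same strand, so that part of the uncertainty does not depend on the use of strand. These overlaps bear on the TPM above as well.

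**Figure D2:**
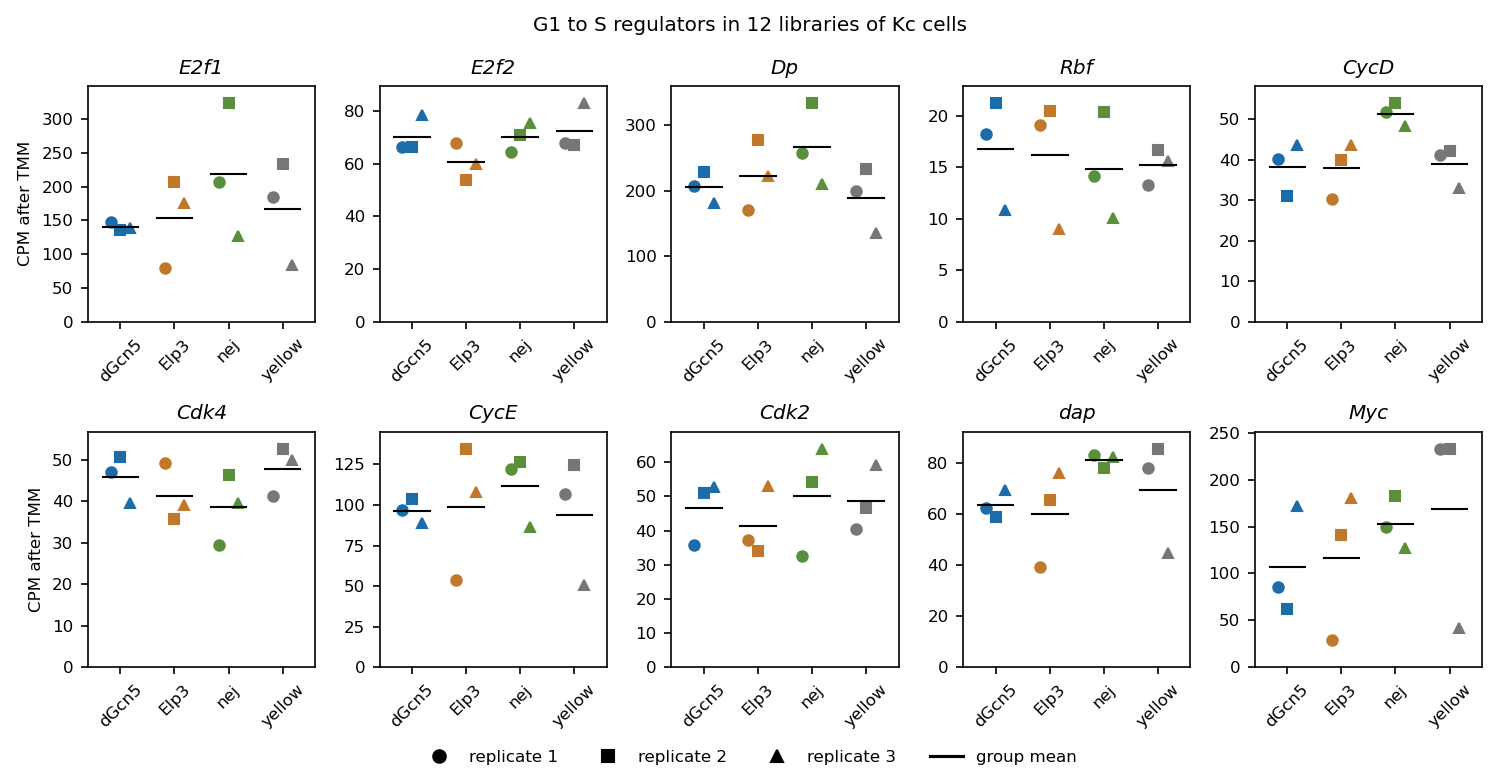
CPM after TMM normalization of each gene in the dGcn5, Elp3, nej and yellow libraries (circle, square and triangle for replicates 1, 2 and 3; the line is the group mean, and each axis starts at 0). For CycD the 3 libraries labelled nej, at 48.3 to 53.9 CPM, lie above all others, and for Myc the yellow libraries reach both 232.2 and 41.7 CPM.

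For each pair of groups the counts were tested by edgeR's quasi-likelihood method, with Benjamini-Hochberg adjustment over all features tested. With 3 libraries against 3, the exact two-sided permutation test of a single gene cannot go below p = 0.1. The 3 comparisons against yellow share the yellow libraries, and the other 3 share their groups among themselves and with these, so they are not independent of each other.

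For dGcn5 against yellow, the comparison that the series was made for, 0 of 10 members were called and 0 had an unadjusted p under 0.05 with edgeR, where 0% and 3.67% of the 9820 features did. DESeq2 also called 0 members. The log2 fold changes ran from -0.66 to 0.14, 3 above 0 and 7 below, with a median of -0.058 beside -0.026 over all features. No member's groups separated, where 4.25% of features lay wholly higher and 3.85% wholly lower in the dGcn5 libraries. The 3 members with the smallest p were Myc, E2f1 and Dp.

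Myc averaged 107 ± 57.5 CPM in the dGcn5 libraries and 169 ± 110 CPM in the yellow libraries (SD, n = 3 each), a log2 fold change of -0.66 with a standard error of 0.64 and a 95% confidence interval of -2.15 to 0.82. Its adjusted p from edgeR's quasi-likelihood test was 0.984 and its exact two-sided permutation p was 0.4. E2f1 averaged 141 ± 6.58 CPM in the dGcn5 libraries and 167 ± 76.0 CPM in the yellow libraries (SD, n = 3 each), a log2 fold change of -0.25 (95% confidence interval -1.08 to 0.58, adjusted p = 0.984 with edgeR). Without yellow replicate 2 the value for E2f1 was 0.079. Dp differed by 0.12 on the log2 scale (95% confidence interval -0.48 to 0.73, adjusted p = 0.984 with edgeR), and by -0.033 without yellow replicate 3. The spread of the libraries was thus larger than each of these differences.

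The intervals bound what could have been missed. Those of 8 of 10 members lay within a log2 change of 1, a doubling or halving, and those of 3 members, E2f2, CycD and Cdk4, lay within 0.58, a change of 1.5-fold. For E2f2 the interval was -0.52 to 0.42 around -0.050. For CycD it was -0.53 to 0.48 around -0.026, and for Cdk4 -0.56 to 0.43 around -0.066. The members outside a log2 change of 1 were E2f1 and Myc.

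The count of called members changed with the weights of single libraries. Limma-voom without weights, an alternative added after seeing the data, called 0 members and 0 features in this comparison, as edgeR did. Limma-voom with sample quality weights gave yellow replicate 3 a weight of 0.111 and dGcn5 replicate 3 one of 0.232, and called 4765 features and 3 members. With it, Myc had a log2 fold change of -1.41 (adjusted p = 0.00221 with limma-voom), E2f1 one of -0.42 (adjusted p = 0.0397 with limma-voom) and dap one of -0.34 (adjusted p = 0.0322 with limma-voom). With edgeR on the same libraries dap stood at -0.12, and it is named here after its values were seen. In the edgeR fit with 1 library left out, Myc ranged from -1.17 without dGcn5 replicate 3 to -0.35 without yellow replicate 2, and dap from -0.32 without yellow replicate 3 to 0.061 without yellow replicate 2. E2f1 ranged from -0.53 without yellow replicate 3 to 0.079 without yellow replicate 2, and 0 members were called in each of these fits. Without yellow replicate 3, E2f1 and Myc had unadjusted p of 0.0197 and 0.0392 and adjusted p of 0.232 and 0.272 with edgeR. The share of all features under 0.05 in that fit is not given here.

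For the libraries labelled Elp3 against yellow, 0 of 10 members were called, 0 had an unadjusted p under 0.05 with edgeR and 0 were called by DESeq2 or limma-voom. Over the 9915 features the shares with edgeR were 0.0101% and 3.86%. The log2 fold changes lay between -0.52 and 0.23, 3 above 0 and 7 below, with a median of -0.16 beside -0.015 over all features. No member separated the groups, where 4.44% of features were wholly higher and 3.91% wholly lower in the libraries labelled Elp3.

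E2f2 came first by p, at 60.5 ± 6.93 CPM in the libraries labelled Elp3 and 72.6 ± 8.91 CPM in the yellow libraries (SD, n = 3 each). Its log2 fold change was -0.29, with a standard error of 0.22, a 95% confidence interval of -0.80 to 0.23 and an adjusted p of 0.999965 from edgeR's quasi-likelihood test. Cdk4 differed by -0.24 (95% confidence interval -0.77 to 0.29) and Cdk2 by -0.25 (95% confidence interval -0.91 to 0.41), each with the same adjusted p with edgeR. The exact two-sided permutation p was 0.2 for E2f2 and Cdk4 and 0.5 for Cdk2, and the lower means of the repressor and of both kinases in the libraries labelled Elp3 stayed within the spread between libraries. Without replicate 2 labelled Elp3 the values were -0.16 for E2f2, -0.095 for Cdk4 and -0.081 for Cdk2. Cdk2 also stood at -0.49 without replicate 3 labelled Elp3, at -0.38 without yellow replicate 1, at -0.15 without replicate 1 labelled Elp3 and at -0.083 without yellow replicate 3. E2f2 stood at -0.17 without yellow replicate 3. With yellow replicate 3 and replicate 1 labelled Elp3 both left out, a step chosen after seeing the data, Cdk2 stood at 0.027.

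For the libraries labelled nej against yellow, CycD was the member whose groups did not overlap, and Dp had the largest fold change. Again 0 of 10 members were called and 0 had an unadjusted p under 0.05 with edgeR, against 0% and 3.65% of the 9816 features, and DESeq2 and limma-voom called 0 members. The log2 fold changes ran from -0.31 to 0.50, 6 above 0 and 4 below, with a median of 0.14 beside 0.0065 over all features.

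CycD averaged 51.3 ± 2.83 CPM in the libraries labelled nej and 38.8 ± 5.02 CPM in the yellow libraries (SD, n = 3 each). The log2 fold change was 0.41, with a standard error of 0.20, a 95% confidence interval of -0.068 to 0.88 and an adjusted p of 0.968 from edgeR's quasi-likelihood test. Each library labelled nej lay above each yellow library (exact two-sided permutation test, p = 0.1, the smallest possible). This 1 member stands beside 4.47% of features that were wholly higher in the libraries labelled nej, and no member was wholly lower, where 5.27% of features were. Dp differed by 0.50 (95% confidence interval -0.19 to 1.18, adjusted p = 0.968 with edgeR) and Cdk4 by -0.31 (95% confidence interval -0.87 to 0.25, adjusted p = 0.968 with edgeR), both with overlapping groups and an exact two-sided permutation p of 0.2. Cyclin D and its kinase thus had differences of opposite sign, neither past the test. The replicate number was also used as a block. The number comes from the labels. That libraries of the same number belong together was read from their deviations (correlations of 0.14, 0.47 and 0.63). With the block the number of features called was 2 in place of 0, and 1 member, Dp, had an unadjusted p under 0.05. The share of all features under 0.05 with the block is not given here. With the block, Dp stood at 0.51 (unadjusted p = 0.0261, adjusted p = 0.360 with edgeR) and CycD at 0.41 (unadjusted p = 0.0590, adjusted p = 0.452 with edgeR). In the fit without the block, Dp was 0.30 without yellow replicate 3 and 0.31 without replicate 2 labelled nej. Cdk4 was -0.16 without replicate 1 and -0.47 without replicate 2 labelled nej.

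Between dGcn5 and the libraries labelled Elp3 the differences had the narrowest range of the 6 comparisons, -0.15 to 0.22 on the log2 scale. Here 0 of 10 members were called and 0 had an unadjusted p under 0.05 with edgeR, beside 0.0102% and 0.981% of the 9785 features, and DESeq2 and limma-voom called 0. Of the log2 fold changes 6 lay above 0 and 4 below, with a median of 0.030 beside -0.016 over all features, and no groups separated, where 1.78% of features were wholly higher and 1.78% wholly lower in the dGcn5 libraries. E2f2 differed by 0.22 (95% confidence interval -0.25 to 0.70), Cdk4 by 0.15 (95% confidence interval -0.36 to 0.67) and Cdk2 by 0.17 (95% confidence interval -0.45 to 0.79), each with an adjusted p of 0.999939 with edgeR. These are the members named above for the libraries labelled Elp3 against yellow, and both comparisons use the same 3 libraries labelled Elp3. With limma-voom and quality weights the value for Cdk2 was -0.12. With 1 library left out, Cdk2 ranged from 0.072 without replicate 2 to 0.39 without replicate 3 labelled Elp3, and Cdk4 from 0.085 without replicate 2 to 0.27 without replicate 1 labelled Elp3. E2f2 stood at 0.14 without dGcn5 replicate 3. The intervals of 7 members lay within a log2 change of 1, and of 0 within 0.58, so that small differences were not detectable at this depth and spread.

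CycD and dap were wholly lower in the dGcn5 libraries than in those labelled nej. CycD averaged 38.2 ± 6.52 CPM in the dGcn5 libraries and 51.3 ± 2.83 CPM in those labelled nej (SD, n = 3 each), a log2 fold change of -0.43 with a standard error of 0.20, a 95% confidence interval of -0.89 to 0.040 and an adjusted p of 0.625 from edgeR's quasi-likelihood test. For dap the means were 63.6 ± 5.41 CPM in the dGcn5 libraries and 81.0 ± 2.65 CPM in those labelled nej (SD, n = 3 each), a log2 fold change of -0.35 (95% confidence interval -0.76 to 0.061, adjusted p = 0.625 with edgeR). The exact two-sided permutation p was 0.1 for both, the smallest possible. E2f1 differed by -0.64 (95% confidence interval -1.40 to 0.12, adjusted p = 0.625 with edgeR) with overlapping groups, and by -0.25 without replicate 2 labelled nej.

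These 2 of 10 members stand beside 4.92% of features that were wholly lower in the dGcn5 libraries, and 0 members stand beside 6.31% that were wholly higher. By edgeR's test 0 of 10 members were called and 0 had an unadjusted p under 0.05, where 0% and 6.66% of the 9743 features did, and DESeq2 and limma-voom called 0 members. The log2 fold changes had 3 members above 0 and 7 below, with a median of -0.28 beside 0.0076 over all features.

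The same 2 genes were wholly lower in the libraries labelled Elp3 than in those labelled nej. CycD averaged 37.9 ± 6.88 CPM in the libraries labelled Elp3 and 51.3 ± 2.83 CPM in those labelled nej (SD, n = 3 each), a log2 fold change of -0.45 (95% confidence interval -1.05 to 0.15, adjusted p = 0.997 with edgeR). For dap the means were 60.1 ± 19.0 CPM in the libraries labelled Elp3 and 81.0 ± 2.65 CPM in those labelled nej (SD, n = 3 each), a log2 fold change of -0.44 (95% confidence interval -1.16 to 0.28, adjusted p = 0.997 with edgeR), and -0.19 without replicate 1 labelled Elp3. Both had an exact two-sided permutation p of 0.1, and E2f1 differed by -0.50 (95% confidence interval -1.55 to 0.55, adjusted p = 0.997 with edgeR) with overlapping groups. E2f1 stood at -0.13 without replicate 2 labelled nej, at -0.18 without replicate 1 labelled Elp3 and at -0.77 without replicate 2 labelled Elp3, and CycD at -0.29 without replicate 1 labelled Elp3.

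These 2 members stand beside 2.35% of features wholly lower in the libraries labelled Elp3, and 0 members beside 3.19% wholly higher. By edgeR's test 0 of 10 members were called and 0 had an unadjusted p under 0.05, where 0.0102% and 2.35% of the 9804 features did, and DESeq2 and limma-voom called 0. Both comparisons with the libraries labelled nej rest on the same 3 nej libraries, so the 2 genes found in each are not separate observations.

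Over all 4 groups in 1 test, 0 of 10 members were called and 0 had an unadjusted p under 0.05 with edgeR, where 0.00965% and 3.6% of the 10368 features did. The smallest unadjusted p of the 10 was 0.146, of CycD in edgeR's quasi-likelihood test, and each adjusted p was 0.999862. DESeq2 called 0 members and 82 features. Limma-voom with sample quality weights called dap and Myc, 2 of 10 members, beside 3844 of the 10368 features.

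**Figure D3:**
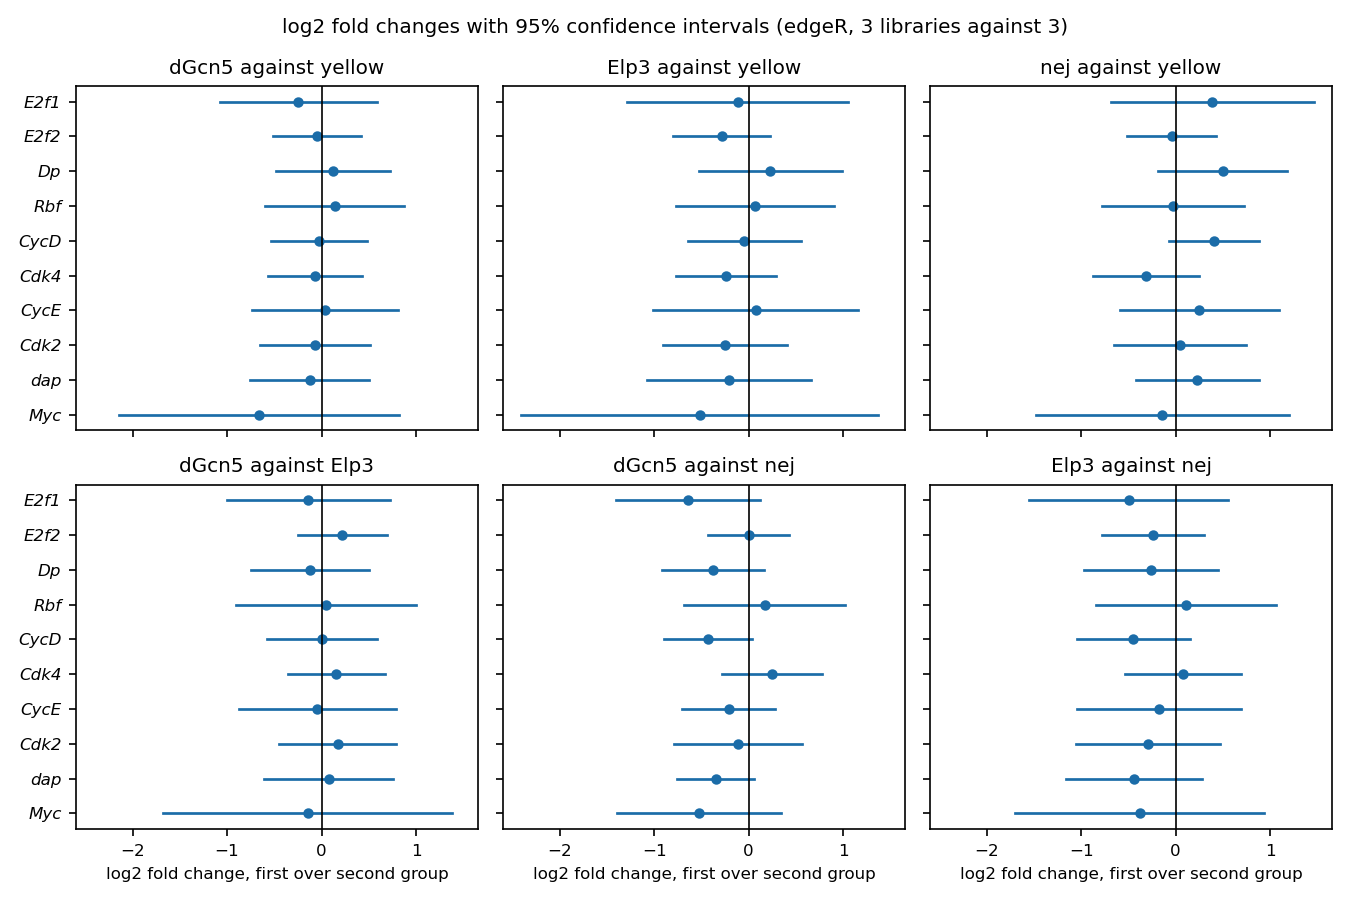
Log2 fold change (point) and 95% confidence interval (line) of each gene from edgeR in the 6 comparisons, first group over second, with a vertical line at 0. Every interval includes 0, and those of CycD and dap for dGcn5 against the libraries labelled nej end closest to it, at 0.040 and 0.061.

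The longest members differed most between libraries. Myc, with 9170 exon bases, differed 7.89-fold between its highest and lowest library, E2f1 (6451 bases) 4.08-fold and CycE (5047 bases) 2.66-fold, while E2f2, the shortest at 2002 bases, differed 1.54-fold. The median over the features that passed the filter was 3.03-fold, and 8 of 10 members lay below it.

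The libraries themselves differed in how level depended on length. For each doubling of exon length, the log2 level relative to the mean of all libraries changed by -0.13, -0.21 and 0.05 in dGcn5 replicates 1, 2 and 3, by -0.34, 0.15 and 0.14 in those labelled Elp3, by 0.19, 0.23 and -0.02 in those labelled nej and by 0.13, 0.15 and -0.33 in yellow. Replicate 1 labelled Elp3 and yellow replicate 3, which held the lowest values of E2f1, CycE and Myc, had the steepest negative slopes. With the trend of each library removed, the highest library of Myc stood 3.97-fold above the lowest, that of E2f1 2.16-fold and that of CycE 1.85-fold. The standard deviation on the log2 scale was smaller for 7 of 10 members, and larger for Rbf, Cdk4 and Cdk2.

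Among the differences described above, the correction moved some of the long genes further than CycD and dap. It shifts a gene only by its exon length and the slope of each library. CycD (2453 bases) and dap (2530 bases) lie near the median of 2076.5 bases and could move little. The correction is thus no test of their differences. E2f1 in dGcn5 against the libraries labelled nej stood at -0.20 after the correction, in place of -0.64, and Myc in dGcn5 against yellow at -0.36, in place of -0.66. CycE in dGcn5 against the libraries labelled nej changed sign, with 0.11 in place of -0.21. The difference of CycD between the libraries labelled nej and yellow was 0.38 after the correction (unadjusted p = 0.0366, adjusted p = 0.975 with edgeR). The share of features under 0.05 with the correction is not given here. The corrected levels of CycD were 48.5 to 52.2 CPM in the libraries labelled nej and at most 43.3 CPM elsewhere. For dGcn5 against the libraries labelled nej the corrected values were -0.39 for CycD and -0.30 for dap.

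**Figure D4:**
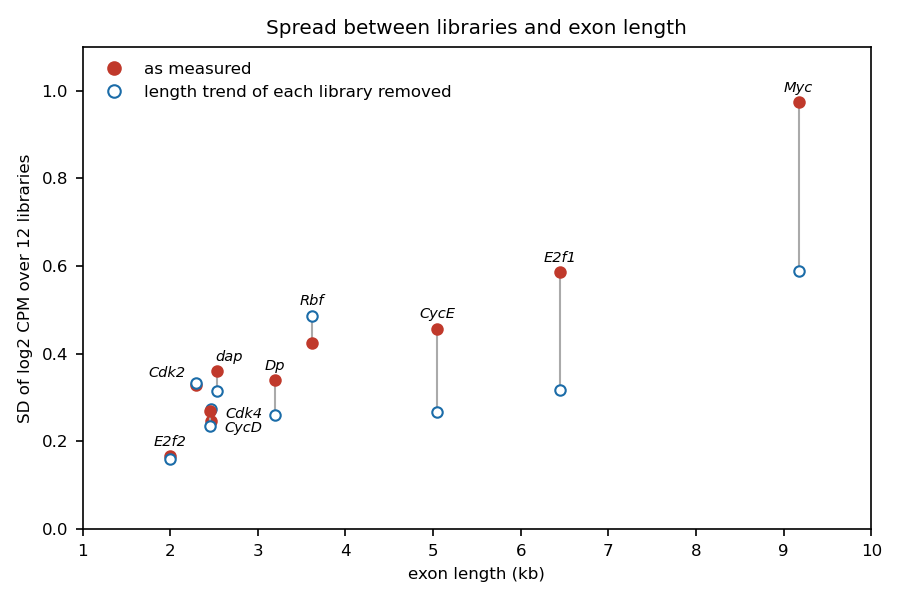
Standard deviation of log2 CPM over the 12 libraries against exon length in kb for each gene, as measured (filled) and with the length trend of each library removed (open), joined by a line. The value for Myc is 0.97 as measured and 0.59 after the correction, and that for E2f1 is 0.59 and 0.32, while those of the short genes differ little.

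Some pairs of members varied together across the libraries, and others did not. The 12 libraries are not independent points, because they fall into groups and differ in depth and length trend. Over them, Pearson's r of log2 CPM, without the length correction, ran from -0.62 to 0.93 for the 45 pairs of members. The median was 0.063, with 25 pairs above 0 and 16 above 0.5. The same shares over pairs of other features are not given here. The highest were dap with Myc at 0.93 and E2f1 with CycE at 0.92, followed by E2f1 with Dp at 0.89. The lowest was E2f2 with CycE at -0.62.

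Of the 9278 features compared over the 12 libraries, the one whose levels were most like those of E2f1 was Pp1alpha-96A at r = 0.99, a catalytic subunit of protein phosphatase 1. For Myc it was Ank at r = 0.99, an ankyrin that links the membrane to the cytoskeleton. CycE was closest to Tsp26A at r = 0.99, a tetraspanin. CycD was closest to EloA at r = 0.96, a subunit of elongin, and Cdk2 to aurA at r = 0.90, the mitotic kinase Aurora A. E2f2 was closest to Uch-L5, a deubiquitinase (r = 0.96), Dp to CG31687 (r = 0.97), Rbf to Pbp45 (r = 0.95), Cdk4 to CG11342 (r = 0.94) and dap to CG9135 (r = 0.97). Each r is the highest of 9278 over 12 libraries, a selection that favours high values, and shared regulation was not tested.

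The wider pathway gave 0 called genes with edgeR, DESeq2 or unweighted limma-voom in each comparison. Of 18 partners of the G1 to S step, such as ubiquitin ligases and cofactors of E2F and Myc, 17 were tested, and of 15 E2F targets and genes of S phase entry 14 were tested. Of 13 genes of the growth signals upstream, 12 were tested. At an unadjusted p under 0.05 there were 0 genes of these lists with edgeR in any comparison but dGcn5 against the libraries labelled nej. There, 2 of the 43 list genes tested, both partners, were under it, which is 4.65% beside 6.66% of all features. With quality weights, limma-voom called 22 of these 43 genes for dGcn5 against yellow, 6 higher and 16 lower, or 51.2% beside 48.5% of all features, and 0 in the other comparisons.

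Mnt, which encodes an antagonist of Myc, averaged 12.2 ± 5.72 CPM in the dGcn5 libraries and 33.2 ± 19.4 CPM in those labelled nej (SD, n = 3 each), a log2 fold change of -1.45 (adjusted p = 0.625 with edgeR). Roc1a, a RING subunit of cullin ubiquitin ligases, averaged 152 ± 11.9 CPM in the dGcn5 libraries and 106 ± 24.1 CPM in those labelled nej (SD, n = 3 each), a log2 fold change of 0.51 (adjusted p = 0.625 with edgeR). Neither passed the adjusted test.

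For dGcn5 against yellow, the E2F targets had 2 values above 0 and 12 below, with a median log2 fold change of -0.11, beside -0.026 over all features. The partners had 7 above 0 and 10 below (median -0.063), and the growth signals 3 above and 9 below (median -0.22). For the libraries labelled nej against yellow, the medians were -0.014 for the E2F targets, 0.0097 for the partners and 0.14 for the growth signals, beside 0.0065 over all features. For those labelled Elp3 against yellow, they were -0.088 for the E2F targets, -0.12 for the partners and -0.074 for the growth signals, beside -0.015 over all features. For dGcn5 against the libraries labelled nej, the growth signals had 4 values above 0 and 8 below with a median of -0.31, beside 0.0076 over all features, and none was called. The medians there were -0.097 for the E2F targets and -0.024 for the partners. For dGcn5 against the libraries labelled Elp3, the medians were -0.060 for the E2F targets, 0.072 for the partners and -0.19 for the growth signals. For those labelled Elp3 against those labelled nej, they were -0.039, -0.17 and -0.16 in the same order. These medians are without the length correction.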

How the data were processed

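According to the methods of the study, the authors trimmed reads, removed ribosomal RNA, aligned with STAR to BDGP6.32 and counted reads on exons with featureCounts. The values the authors deposited are raw whole-number counts per feature. Coordinates and exon lengths (the other kind of value used) are those the authors deposited in the same table. No per-sample column was left unused. The use of strand and of molecular identifiers is not given in the sources used here.

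Counts were tested with edgeR 4.0.16 in R 4.3.3 (quasi-likelihood, TMM, its filter at a minimum count of 10), on the 6 libraries of each comparison or on all 12, and called at an adjusted p-value under 0.05. CPM are after TMM, log2 values used a prior count of 2, and TPM were computed over the deposited exon lengths. The alternatives were DESeq2 1.42.0, its size factors, no filter, 10 counts in every library, a single fit to 12 libraries, the replicate number as a block, removal of each library's length trend, limma-voom with sample quality weights or, added after seeing the data, without them (limma 3.58.1) and leaving out each library. The scripts were checked on simulated data.

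Same-numbered libraries deviated together in 3 comparisons (correlations of 0.14, 0.47 and 0.63 for nej against yellow, 0.39, 0.30 and 0.85 for dGcn5 against Elp3, and 0.42, 0.19 and 0.40 for dGcn5 against nej). The replicate numbers come from the labels, but that libraries of the same number belong together was read from the data. The other 3 comparisons each had a correlation under 0.1.

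Libraries held 19102102 to 23198850 counts (median 20883014), and replicates differed by more than counting error (chi-square per degree of freedom of 27.5 to 379). All members are given in every library. In each comparison, the 3 members with the smallest unadjusted p are given with errors, and list genes are named only past an unadjusted p of 0.05. The genes described, the lists and the tests were chosen with earlier results of these data known. PolA1 and Akt were not matched by name.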

Additional observations from a re-analysis of the deposited data

How the results depend on the processing

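Groups labelled Elp3 and nej are given here by their labels alone. Of the 60 differences of the 10 genes in 6 comparisons, 22 kept their sign under every alternative, and 102 of 970 alternative values had the other sign. The number of called genes was 0 in each comparison under each alternative run except limma-voom with sample quality weights, which called 3 for dGcn5 against yellow and 2 over all 4 groups. Over all features, the same weighted runs called 4765 (48.5% of those tested) and 3844 (of 10368). Limma-voom without weights, added after seeing the data, called 0. The 0 genes at an unadjusted p under 0.05 with edgeR became 2 for dGcn5 against yellow without yellow replicate 3. They became 1 for nej against yellow without yellow replicate 3 and 1 for dGcn5 against Elp3 without Elp3 replicate 1. For dGcn5 against nej they became 2 without dGcn5 replicate 3 and 1 without nej replicate 3. For nej against yellow they became 1 with the length correction, 1 with the replicate block and 2 with both. Weighted limma-voom gave 3 for dGcn5 against yellow and 2 for dGcn5 against nej. With yellow replicate 3 and Elp3 replicate 1 both left out, Elp3 against yellow gave 1. The share of all features under 0.05 in these fits is not given here. Among the named differences, E2f1 in dGcn5 against yellow ranged from -0.53 to 0.079 when each library was left out, Dp from -0.033 to 0.31, and Myc from -1.17 to -0.35. Cdk2 stood at -0.12 in dGcn5 against Elp3 with weighted limma-voom, and at 0.027 in Elp3 against yellow with yellow replicate 3 and Elp3 replicate 1 both left out, which was chosen after seeing the data. The cause was not tested. CycD ranged from 0.30 to 0.46 for nej against yellow, from -0.53 to -0.29 for dGcn5 against nej and from -0.58 to -0.29 for Elp3 against nej when each library was left out. With the replicate block, 0 of the 10 genes were called in any comparison. Over all features, the block changed the count to 2 in place of 0 for nej against yellow and to 0 in place of 1 for Elp3 against yellow. In the 3 comparisons whose libraries share only a number it is an alternative without a pairing, and 8 of 12 libraries correlated best with a library of their own number. DESeq2 called 42, 23, 44, 6, 32 and 11 features for dGcn5, Elp3 and nej against yellow, dGcn5 against Elp3, dGcn5 against nej and Elp3 against nej. The spread between libraries, a biological coefficient of variation of 38.2% to 44.3%, exceeded counting error at these depths.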
